A study of Rattus norvegicus with 70 samples.

Results

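The 32 genes described here make, sense, take up, move, store or export cholesterol. They were chosen by symbol and were all present among the 19441 named genes of each tissue table. Of these, 7 act in the mevalonate arm, 11 in the squalene and sterol arm, 5 sense sterols or switch on synthesis, 6 serve uptake, transport and storage, and 3 belong to export and its receptor LXR. Male rats of the inbred strain Wistar-Kyoto gave messenger RNA of 6 tissues, namely hypothalamus, lung, adrenal, liver, skeletal muscle and adipose tissue, after ozone at 0.8 ppm for 4 h or after air. The question named by the series is how these tissues differ in their transcripts after the exposure. No age, genotype other than the strain, or further treatment is given in the labels used here, and the labels do not say that equal library numbers in different tissues mark 1 rat. The 68 libraries were 6 ozone and 6 air in lung, in liver and in hypothalamus, 6 ozone and 5 air in adrenal, 5 and 5 in adipose tissue, and 5 ozone and 6 air in muscle.

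Cholesterol is built in the endoplasmic reticulum from acetyl-CoA, first through mevalonate to farnesyl pyrophosphate and then through squalene and lanosterol to the sterol itself. When membrane sterol is low, the escort protein SCAP carries the SREBP factors to the Golgi, where they are cut and released to switch on synthesis and uptake genes. When sterol is high, INSIG proteins hold SCAP back, and oxysterols activate LXR, which switches on export genes. Liver sends cholesterol into lipoproteins and bile, adrenal cortex uses stored cholesteryl ester for steroid hormones, and lung macrophages clear surfactant lipid.

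Values below are the authors' normalised values, that is, reads of a gene scaled by 1 size factor for each library, unless stated otherwise. Recovered reads ran from 8854272 to 18848151 per library. A fold change is the ozone minus air difference of log2(value + 1) ± its standard error, which understates the change of low genes. A gene rose or fell where the limma test over all genes of the tissue gave an adjusted p under 0.05. In liver, air 1 correlated less with its group (mean r 0.917) than the other air libraries (0.954 to 0.963). In adrenal, ozone 16 stood at 0.944 against 0.960 to 0.968 for the other ozone libraries, and air 8 at 0.892 against 0.945 to 0.954 for the other air libraries. No label states that every library came from its own rat, so p-values measure the spread between libraries. These are bulk tissues, in which fewer cells of a type and less RNA per cell cannot be told apart.

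Markers of each labelled tissue were present in it. In muscle, where 21.6% of all tested genes rose and 22.1% fell, all 4 of the tested muscle markers rose, with a summed level of 54670 to 80210 CPM (counts per 1000000 recovered reads) in ozone libraries, against 26300 to 51180 in air libraries. The 4 tested markers of myelinating cells, taken from an oligodendrocyte list of 8, all fell there, with sums of 9.54 to 17.9 in ozone and 53.9 to 71.8 CPM in air libraries, and 2 of 9 tested macrophage markers fell, with sums of 61.1 to 164 in ozone and 114.6 to 272.5 in air and all 9 fold changes below 0 (median -0.65). In lung, where 9.51% of all genes rose and 8.18% fell, 2 of 5 lung markers rose, the surfactant protein genes Sftpb (0.65 ± 0.13, adjusted p = 0.00279) and Sftpa1 (0.49 ± 0.11, adjusted p = 0.00741). There 4 of 6 tested neutrophil markers and 4 of 8 lymphocyte markers fell, and of 9 tested macrophage markers 4 rose and 2 fell, with sums of 587 to 721 CPM in ozone and 561 to 609.7 in air. In adrenal, where 9.23% rose and 9.38% fell, 1 of 4 adrenal markers and 2 of 5 adipose markers rose. Of 5 lung markers Ager rose there (1.84 ± 0.41, adjusted p = 0.00735), and the lung markers summed to 15.1 to 350.1 in ozone against 3.67 to 86.1 CPM in air. Other tissues also held foreign markers, with none passing in the following. Liver markers summed to 25.6 to 717.1 in ozone and 53.3 to 2137 CPM in air in adrenal. In hypothalamus they summed to 7.02 to 1753 and 33.4 to 1096. Muscle markers in adipose tissue summed to 18.6 to 597 and 54.7 to 4767, and adipose markers in lung to 13.8 to 145.7 and 7.86 to 679.5. The part of these shifts in the results below was not tested.

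In air, levels of the 32 genes differed widely between tissues. In CPM, 17 of the 32 were highest in adrenal, 5 in lung, 5 in adipose tissue, 4 in liver and 1 in hypothalamus, while 27 were lowest in muscle. For 17 genes the highest tissue did not overlap the next in any air library. These counts of highest, lowest and separate tissues were not made over all genes. They therefore cannot be read as particular to the 32 genes. Soat1, which esterifies cholesterol for storage, stood at 2470 ± 506 in adrenal air libraries and at 213.5 ± 21.6 in lung, the next tissue, on that scale. Dhcr7, a reductase at the end of synthesis, stood at 1225 ± 426 in adrenal and 104.8 ± 22.8 in liver. Insig2 stood at 208.6 ± 98.1 in liver and 23.1 ± 3.83 in hypothalamus, and Npc2, a lysosomal sterol carrier, at 811 ± 204 in lung and 264 ± 47.7 in adipose tissue. Each tissue's table was normalised apart, and RNA of hypothalamus and adrenal came by another maker's kit than that of the other 4 tissues, so these levels are given with no test.

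After ozone, the genes that passed moved in both directions in lung, liver, adrenal, adipose tissue and muscle. In lung 4 rose and 2 fell, where 9.51% of all tested genes rose and 8.18% fell. In liver 2 rose and 6 fell, against 6.74% and 4.72% of all genes. The adrenal had 2 that rose and 7 that fell, against 9.23% and 9.38%. In hypothalamus 2 rose and none fell by limma, where 0.789% of all genes rose and 0.624% fell. The fallen count there was 0 by edgeR and 0 by DESeq2, and at an unadjusted p under 0.05 it was 0 by limma. Adipose tissue had 1 of each, against 3.87% and 3.45%, and muscle 6 that rose and 9 that fell, against 21.6% and 22.1%. Over the 32 genes the median fold change was 0.04 in lung, -0.20 in liver, -0.27 in adrenal, 0.12 in hypothalamus, -0.02 in adipose tissue and 0.01 in muscle, while that of all tested genes lay between -0.0035 and 0.016 in every tissue.

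Among all 192 gene and tissue pairs, 17 rose and 25 fell. In either direction 17.7% of all tested genes passed in lung, 11.5% in liver, 18.6% in adrenal, 1.41% in hypothalamus, 7.32% in adipose tissue and 43.7% in muscle. Of the 32 genes, 7 passed in no tissue by limma (Pmvk, Cyp51, Tm7sf2, Nsdhl, Insig2, Stard4 and Lipa), 13 in 1, 8 in 2, 3 in 3 and Insig1 in 4. The number of tissues passed was not counted over all genes, so this spread has no share beside it. Lss, Hsd17b7 and Soat1 rose in 1 tissue and fell in another, and Srebf1 rose in 1 and fell in 2. The groups did not overlap for 4 genes in lung (9.54% of all tested genes), 4 in liver (7.62%), 6 in adrenal (12.9%), 2 in hypothalamus (2.15%), 3 in adipose tissue (8.81%) and 6 in muscle (24.3%). With library totals set equal in place of the authors' size factors, the balance moved towards falls. Then 3 rose and 4 fell in lung (6.77% and 11.5% of all genes), 1 and 5 in liver (5.61% and 5.21%), 0 and 11 in adrenal (6.03% and 14.4%), 1 and 0 in hypothalamus (0.591% and 0.722%), 1 and 3 in adipose tissue (2.5% and 6.62%) and 2 and 14 in muscle (8.52% and 38.3%). Without liver air 1 the counts in liver were 2 risen and 8 fallen (8.1% and 5.67% of all genes), and without adrenal ozone 16 and air 8 they were 2 risen and 10 fallen in adrenal (15.1% of all genes in each direction).

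**Figure D1:**
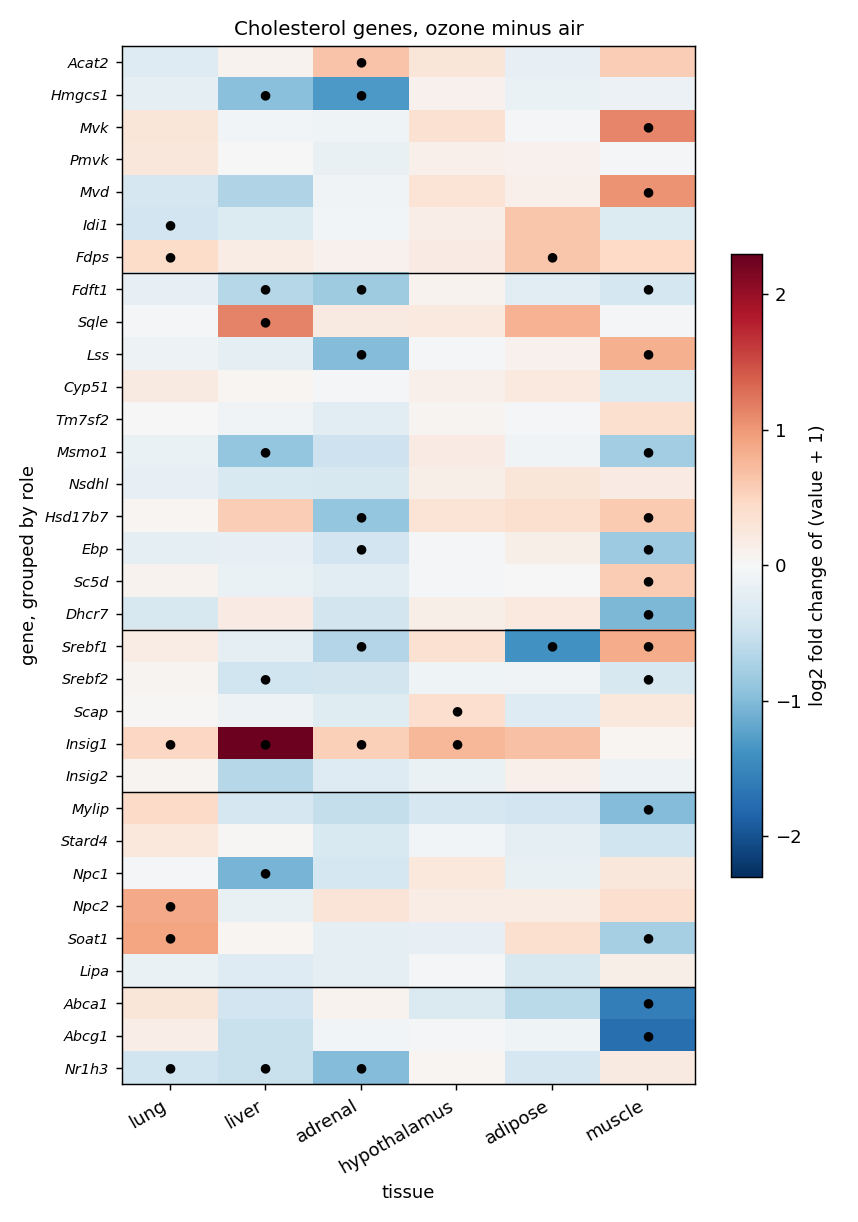
Log2 fold change of (value + 1), ozone minus air, of the 32 genes (rows, grouped by role from synthesis at the top to export at the bottom) in 6 tissues (columns), with red for higher and blue for lower in ozone and a dot where adjusted p was under 0.05. Insig1 in liver (2.25) is the darkest red, and the darkest blue cells are Abcg1 (-1.74) and Abca1 (-1.59) in muscle.

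Synthesis genes share short promoter boxes through which SREBP and its partner NF-Y are known to act. A window from 250 bases before to 50 after the start was found for 27 of the 32 genes (28 windows, RefSeq, build GRCr8, another build than the rn6 of the authors' processing). Those of Insig1, which rose in 4 tissues, Hmgcs1, which fell in liver and adrenal, Lss, which fell in adrenal and rose in muscle, and Abca1, which fell in muscle, are shown 5′ to 3′ along the gene. Capitals mark the NF-Y box CCAAT and the Sp1 box GGGCGG on either strand, and no 2 boxes overlap.
Insig1, chr4:8057720-8058019, minus strand: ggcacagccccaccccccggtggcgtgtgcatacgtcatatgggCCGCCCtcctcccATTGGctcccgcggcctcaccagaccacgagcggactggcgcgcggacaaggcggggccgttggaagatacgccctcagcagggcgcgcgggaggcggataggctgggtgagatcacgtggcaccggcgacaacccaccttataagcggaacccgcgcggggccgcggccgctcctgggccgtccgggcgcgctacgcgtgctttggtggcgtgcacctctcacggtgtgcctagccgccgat
Hmgcs1, chr2:53382054-53382353, plus strand: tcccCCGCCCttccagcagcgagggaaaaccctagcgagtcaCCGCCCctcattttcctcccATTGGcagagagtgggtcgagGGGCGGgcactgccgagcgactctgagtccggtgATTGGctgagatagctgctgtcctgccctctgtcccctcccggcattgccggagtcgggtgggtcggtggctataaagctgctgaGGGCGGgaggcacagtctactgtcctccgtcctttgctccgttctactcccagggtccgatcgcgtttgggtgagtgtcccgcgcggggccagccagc
Lss, chr20:12118181-12118480, minus strand: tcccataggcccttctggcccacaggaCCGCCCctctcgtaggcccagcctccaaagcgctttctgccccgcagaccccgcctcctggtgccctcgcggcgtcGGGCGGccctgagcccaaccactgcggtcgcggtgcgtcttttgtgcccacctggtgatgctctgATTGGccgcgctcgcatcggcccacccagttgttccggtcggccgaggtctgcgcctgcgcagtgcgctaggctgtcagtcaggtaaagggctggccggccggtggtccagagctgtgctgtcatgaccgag
Abca1, chr5:72596424-72596723, minus strand: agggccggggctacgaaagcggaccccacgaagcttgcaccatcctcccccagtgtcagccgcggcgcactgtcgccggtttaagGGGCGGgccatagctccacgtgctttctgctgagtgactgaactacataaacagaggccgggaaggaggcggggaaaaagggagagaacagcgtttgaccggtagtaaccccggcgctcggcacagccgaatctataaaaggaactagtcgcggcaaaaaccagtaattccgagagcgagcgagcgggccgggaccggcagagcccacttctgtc

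Hmgcs1 carries 2 NF-Y and 4 Sp1 boxes, Insig1 1 and 1, Lss 1 and 2, and Abca1 0 and 1. The NF-Y box was present in 21 of the 28 windows (75%), against 37.5% of all 33469 windows of that length, and the Sp1 box in 23 (82.1%), against 33.1%. The windows of Acat2, Cyp51, Dhcr7, Scap, Npc1, Abca1 and Nr1h3 held no NF-Y box. The sterol regulatory element TCACNCCAC was in none of the 28 windows and in 1.12% of all, and the LXR direct repeat, 2 copies of AGGTCA set 4 bases apart, was in none and in 0.00598% of all. These matches describe letters in a window only. Sites that depart from the letters searched were not counted, so a window with no match may still hold such a site. In liver Insig1 rose and Hmgcs1 fell, and both windows hold an NF-Y box.

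Insig1, whose protein holds SCAP back when sterol is high, rose in 4 of 6 tissues. In liver its values were 16570.4 to 33421 (median 21217) in ozone libraries, against 2527 to 8146 (median 4748) in air libraries, a fold change of 2.25 ± 0.27, adjusted p = 8.96e-05. Every ozone library of the liver stood above every air library. In hypothalamus they were 2769.8 to 3259 (median 3058) in ozone libraries, against 1457 to 2041 (median 1807) in air libraries (0.77 ± 0.09, adjusted p = 0.000604), and in lung 2279.7 to 2799 (median 2511) in ozone libraries, against 1569 to 2011 (median 1871) in air libraries (0.47 ± 0.09, adjusted p = 0.00167). Neither of these pairs of groups overlapped. Insig1 in adrenal had 7739.6 to 11325 (median 8861) in ozone libraries, against 7523, 6263, 6749.8, 7048 and 4253 in air libraries, which did not overlap either (0.54 ± 0.16, adjusted p = 0.029). Without adrenal ozone 14 or 17 or adrenal air 6 or 11 Insig1 no longer passed (log2 fold change 0.40 to 0.55, adjusted p 0.0538 to 0.0621). Insig1 did not pass in adrenal with equal library totals (0.41, adjusted p = 0.0728).

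By limma, adipose tissue and muscle gave no call for Insig1. In adipose tissue its values were 22668, 20601, 19943, 12359.9 and 22002 in ozone libraries, against 21299, 7964, 14629, 11865 and 8071 in air libraries (0.68 ± 0.27, adjusted p = 0.163), where 2 of 5 ozone libraries lay above all air libraries. It passed there with array weights (0.87, adjusted p = 0.0468) and without adipose air 2 (0.89, adjusted p = 0.0494). In muscle the fold change was 0.05 ± 0.15 with an adjusted p of 0.815 and the 95% interval ran from -0.28 to 0.38. The ozone effect on Insig1 differed between tissues (F test on the interaction of tissue with exposure, 5 terms, adjusted p = 4.58e-08; 34.1% of all genes passed this test). Against the mean of the other 5 tissues it was higher in liver by 1.75 ± 0.21, adjusted p = 3.53e-09, and in muscle the difference was -0.89 ± 0.22, adjusted p = 0.00135. Of all genes, 6.58% passed that contrast for liver and 28.3% for muscle.

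**Figure D2:**
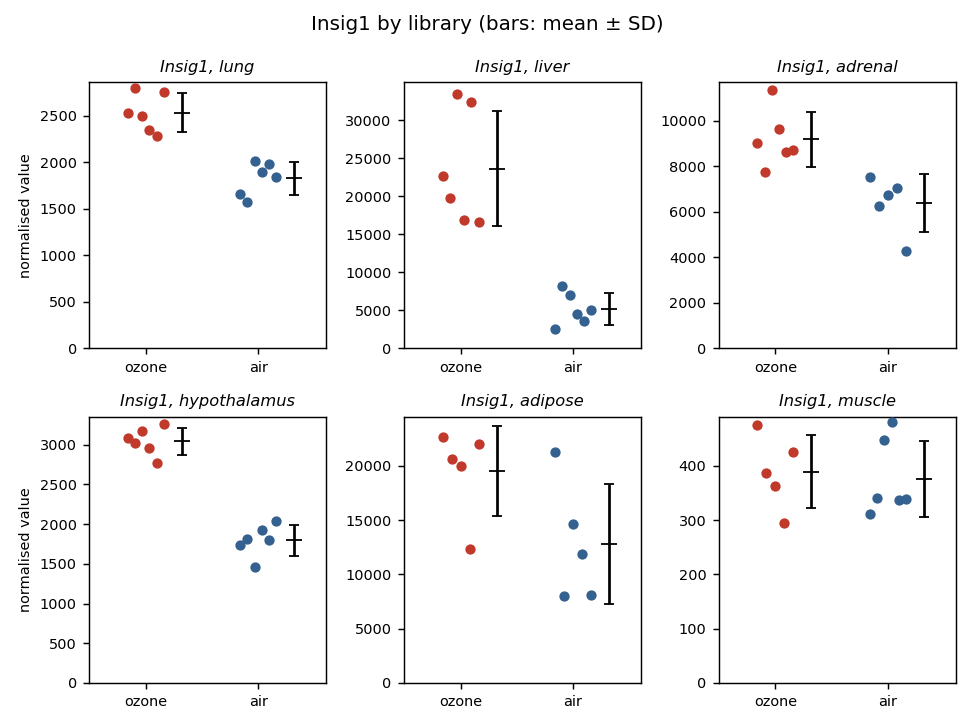
Insig1 normalised value by library (vertical axis) for ozone (left, red) and air (right, blue) in each of 6 tissues; points are libraries and bars give mean ± SD. Ozone libraries lie above all air libraries in lung, liver, adrenal and hypothalamus, and the groups overlap in adipose tissue and muscle.

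Insig2, the INSIG paralog whose liver transcript is known from mice to rise on fasting, did not pass in any tissue by limma, but in liver it lay near the threshold. In liver its values were 1579 to 2093 (median 1702) in ozone libraries, against 2121 to 5218 (median 2341) in air libraries, with every ozone library below every air library but an adjusted p of 0.0573 (fold change -0.65 ± 0.21). Without liver air 1, which had the lowest correlation with its group, the fold change was -0.47 with an adjusted p of 0.0452, and without liver air 2 it was -0.73 with 0.0472. It also passed in liver by DESeq2 (-0.74, adjusted p = 0.0115), edgeR (-0.74, adjusted p = 0.0446) and limma with array weights (-0.46, adjusted p = 0.0476). Elsewhere the fold change of Insig2 was 0.07 in lung, -0.30 in adrenal, -0.15 in hypothalamus, 0.12 in adipose tissue and -0.11 in muscle, with adjusted p from 0.353 to 0.791. In muscle Insig2 passed with equal library totals (-0.44, adjusted p = 0.0232).

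Srebf1 encodes SREBP-1, the factor best known for fatty acid synthesis genes. It fell in adrenal and adipose tissue and rose in muscle. Adrenal values were 713 to 915 (median 810.5) in ozone libraries, against 1369, 1470.3, 1098, 1216 and 1335 in air libraries, with no overlap (-0.66 ± 0.11, adjusted p = 0.00133). In adipose tissue they were 4307, 4721, 1138, 4462 and 5319 in ozone libraries, against 9253, 9416, 9850.5, 7257 and 11251 in air libraries, again with no overlap (-1.40 ± 0.36, adjusted p = 0.0408). Ozone 21 was by far the lowest adipose library at 1138, and without it the fold change was -0.99 (adjusted p = 0.00324). Without adipose ozone 16 or 19 or adipose air 2, 5, 6, 9 or 12 Srebf1 no longer passed (log2 fold change -1.50 to -1.33, adjusted p 0.0601 to 0.0914).

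In muscle Srebf1 had 2983, 1954, 2388, 5319 and 3248 in ozone libraries, against 1158 to 2308 (median 1802) in air libraries, where 4 of 5 ozone libraries lay above all air libraries (0.84 ± 0.25, adjusted p = 0.0138). With library totals set equal, which lowers the median fold change of all muscle genes to -0.31, it was 0.52 with an adjusted p of 0.101. In hypothalamus 5 of 6 ozone libraries lay above all air libraries, with a fold change of 0.34 ± 0.10, adjusted p = 0.111, while it passed by DESeq2 (0.34, adjusted p = 0.0153) and with array weights (0.36, adjusted p = 0.0449). Lung (0.17, adjusted p = 0.52) and liver (-0.21, adjusted p = 0.638) gave no call, although without lung air 10 Srebf1 passed in lung (0.33, adjusted p = 0.0429). The effect on Srebf1 differed between tissues (F test, adjusted p = 2.1e-06), and against the mean of the other 5 it stood apart in adipose tissue (-1.50 ± 0.26, adjusted p = 7.87e-05; 3.47% of all genes passed) and in muscle (1.20 ± 0.25, adjusted p = 0.000221).

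Srebf2, for the factor best known for cholesterol synthesis and uptake genes, fell in liver and muscle. Liver values were 1088 to 1513 (median 1279) in ozone libraries, against 1460.0 to 2080.1 (median 1725) in air libraries (-0.45 ± 0.13, adjusted p = 0.0364). Without liver ozone 14, 16, 18 or 20 or liver air 6 or 10 Srebf2 no longer passed (log2 fold change -0.47 to -0.40, adjusted p 0.0526 to 0.0847). Srebf2 did not pass in liver with equal library totals (-0.50, adjusted p = 0.0503). Srebf2 did not pass in liver with no minimum (-0.45, adjusted p = 0.0525). In muscle it had 785, 657, 654, 752 and 772 in ozone libraries, against 787 to 1208 (median 888) in air libraries, with no overlap (-0.36 ± 0.13, adjusted p = 0.0357). Without muscle ozone 15, 16, 23 or 24 or muscle air 3 or 7 Srebf2 no longer passed (log2 fold change -0.38 to -0.28, adjusted p 0.0513 to 0.0891). The other tissues gave 0.06 (adjusted p = 0.682) in lung, -0.43 (adjusted p = 0.223) in adrenal, -0.10 (adjusted p = 0.711) in hypothalamus and -0.07 (adjusted p = 0.842) in adipose tissue. Its effect was not called different between tissues (F test, adjusted p = 0.143).

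Scap, the sterol-sensing escort of the SREBPs, rose in hypothalamus, with 1567 to 1898 (median 1750.0) in ozone libraries, against 1207 to 1405 (median 1352) in air libraries and no overlap (0.39 ± 0.08, adjusted p = 0.0359). Without hypothalamus ozone 13, 14, 16 or 17 or hypothalamus air 2, 3, 4 or 7 Scap no longer passed (log2 fold change 0.36 to 0.41, adjusted p 0.0534 to 0.101). Scap did not pass in hypothalamus with equal library totals (0.36, adjusted p = 0.0873). In the other tissues its fold change was 0.02 (adjusted p = 0.897) in lung, -0.12 (adjusted p = 0.577) in liver, -0.28 (adjusted p = 0.182) in adrenal, -0.30 (adjusted p = 0.235) in adipose tissue and 0.25 (adjusted p = 0.114) in muscle. Scap passed in adrenal with array weights (-0.30, adjusted p = 0.0189) and without ozone 16 and air 8 (-0.27, adjusted p = 0.0304), and in muscle without air 2 (0.33, adjusted p = 0.0214). Against the mean of the other 5, the hypothalamus stood higher by 0.47 ± 0.11, adjusted p = 0.0131 (1.41% of all genes passed), while in adrenal the difference was -0.33 ± 0.12, adjusted p = 0.0483 (14.5% passed) and in muscle 0.31 ± 0.12, adjusted p = 0.0408.

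**Figure D3:**
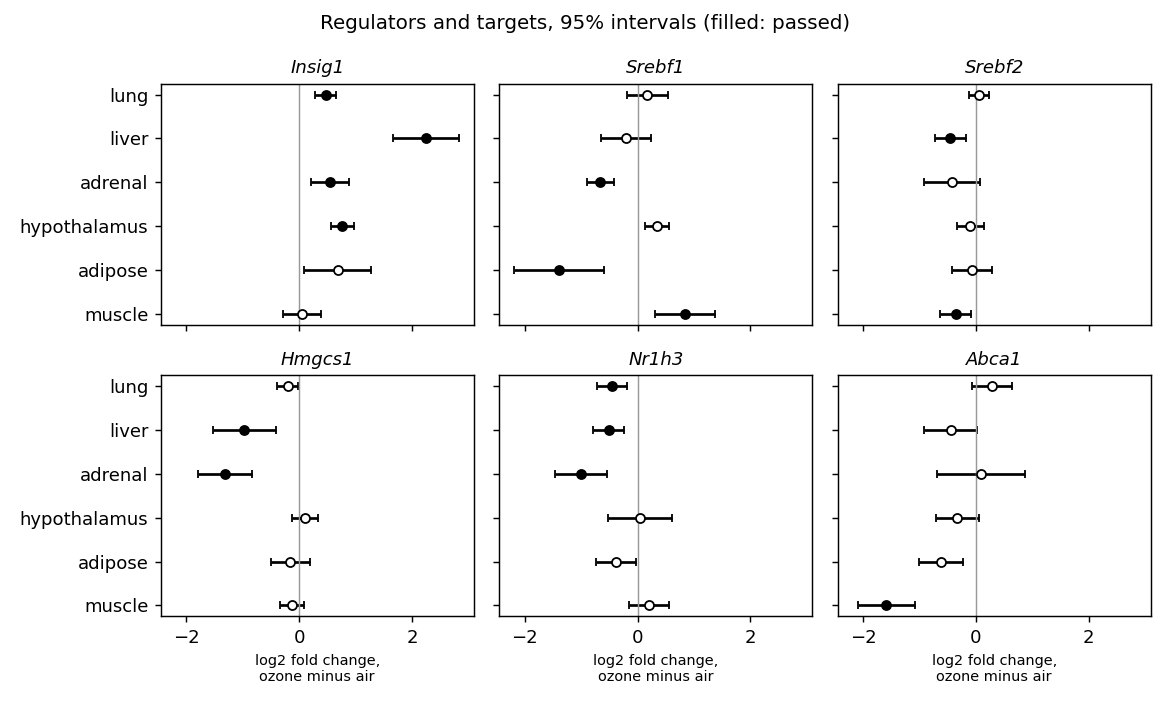
Ozone minus air log2 fold change (horizontal axis) with its 95% interval in 6 tissues (rows) for Insig1, Srebf1, Srebf2, Hmgcs1, Nr1h3 and Abca1; filled points passed an adjusted p of 0.05. Insig1 lies right of 0 in lung, liver, adrenal and hypothalamus, Hmgcs1 lies left of 0 in liver and adrenal, and Srebf1 lies left in adrenal and adipose tissue and right in muscle.

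Of the 7 mevalonate genes, Hmgcs1 showed the largest falls. It encodes the cytosolic HMG-CoA synthase, which makes HMG-CoA for mevalonate. Adrenal values were 3369 to 5207 (median 4472) in ozone libraries, against 10799, 8587, 18365, 13214 and 6905 in air libraries, with every ozone library below every air library (-1.32 ± 0.22, adjusted p = 0.00142). In liver they were 3473 to 5619 (median 4769.5) in ozone libraries, against 5601 to 16047 (median 7985) in air libraries (-0.97 ± 0.26, adjusted p = 0.0259), where 4 of 6 ozone libraries lay below all air libraries. Without liver ozone 14 or 18 or liver air 6 or 10 Hmgcs1 no longer passed (log2 fold change -0.91 to -0.80, adjusted p 0.0502 to 0.0641). In the other tissues the fold change ran from -0.20 in lung to 0.10 in hypothalamus, with adjusted p from 0.133 to 0.708. The effect differed between tissues (F test, adjusted p = 9.26e-06), and stood apart from the mean of the other 5 in adrenal (-1.04 ± 0.20, adjusted p = 6.18e-05) and liver (-0.63 ± 0.19, adjusted p = 0.0283).

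Fdps, which makes farnesyl pyrophosphate, rose in lung and in adipose tissue. Lung values were 871 to 1121 (median 992) in ozone libraries, against 576 to 943 (median 739.5) in air libraries (0.42 ± 0.11, adjusted p = 0.0186), and 4 of 6 ozone libraries lay above all air libraries. Fdps did not pass in lung with equal library totals (0.35, adjusted p = 0.0581). Adipose values were 1527, 1435, 951, 1135 and 1231 in ozone libraries, against 914, 813, 644, 781 and 835 in air libraries, with no overlap (0.64 ± 0.15, adjusted p = 0.0233). Without adipose ozone 16, 19 or 23 or adipose air 5, 6 or 9 Fdps no longer passed (log2 fold change 0.57 to 0.65, adjusted p 0.0501 to 0.0627). In liver, adrenal and hypothalamus the fold change of Fdps lay between 0.11 and 0.19, and in muscle it was 0.46 (adjusted p = 0.0608).

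Idi1, the isomerase just before Fdps, fell in lung with 424 to 609 (median 460.4) in ozone libraries, against 541 to 847 (median 656) in air libraries (-0.45 ± 0.13, adjusted p = 0.0314). Without lung ozone 13, 16, 19 or 20 or lung air 2, 8 or 9 Idi1 no longer passed (log2 fold change -0.43 to -0.38, adjusted p 0.059 to 0.0736). Idi1 and Fdps, which act one after the other, thus moved in opposite directions in lung. Adipose tissue gave Idi1 a fold change of 0.64 ± 0.23, adjusted p = 0.124, and the other 4 tissues -0.32 to 0.15. Acat2, a cytosolic thiolase that supplies acetoacetyl-CoA, rose in adrenal with 843 to 1415 (median 1161) in ozone libraries, against 847, 615, 622, 1123 and 605 in air libraries (0.66 ± 0.19, adjusted p = 0.0287). Without adrenal ozone 14, 15, 17 or 20 or adrenal air 6 or 11 Acat2 no longer passed (log2 fold change 0.58 to 0.66, adjusted p 0.0537 to 0.0759). Acat2 did not pass in adrenal with equal library totals (0.52, adjusted p = 0.101). In adrenal, Acat2 and Hmgcs1, which act one after the other, thus moved in opposite directions.

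In muscle, Mvk and Mvd rose. Mvk phosphorylates mevalonate and had 57, 25.3, 40, 37.5 and 46 in ozone libraries, against 7.54 to 26.1 (median 20.2) in air libraries (1.13 ± 0.31, adjusted p = 0.00914). Mvd, the decarboxylase that makes isopentenyl pyrophosphate, had 63.7, 39.4, 56.2, 39.7 and 28.9 in ozone libraries, against 11.2 to 34.3 (median 23.1) in air libraries (1.03 ± 0.33, adjusted p = 0.0211). Without muscle ozone 13 or 16 Mvd no longer passed (log2 fold change 0.90 to 0.94, adjusted p 0.0548 to 0.0589). Mvd did not pass in muscle with equal library totals (0.72, adjusted p = 0.0768). Both are low genes, and for each 4 of 5 ozone libraries lay above all air libraries. Elsewhere the fold change of Mvk ran from -0.10 to 0.36 and that of Mvd from -0.69 in liver (adjusted p = 0.143) to 0.31 in hypothalamus. Pmvk, the kinase between them, passed in no tissue and ran from -0.17 in adrenal to 0.27 in lung.

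In the squalene and sterol arm, Fdft1, which makes squalene, fell in 3 tissues. Liver values were 987 to 1707 (median 1406) in ozone libraries, against 1653 to 2759 (median 2109) in air libraries (-0.65 ± 0.17, adjusted p = 0.0214), with 5 of 6 ozone libraries below all air libraries. Without liver ozone 14 or 20 Fdft1 no longer passed (log2 fold change -0.59 to -0.56, adjusted p 0.05 to 0.0572). Adrenal values were 892 to 1416 (median 1183) in ozone libraries, against 1620.1, 1587, 3658, 2507 and 1477 in air libraries, with no overlap (-0.81 ± 0.22, adjusted p = 0.0236). Without adrenal ozone 19 or adrenal air 9 Fdft1 no longer passed (log2 fold change -0.73, adjusted p 0.0538 to 0.0559). In muscle it averaged 1002 ± 153 in ozone and 1325 ± 189 in air libraries (SD, n = 5 and 6), a fold change of -0.41 ± 0.14, adjusted p = 0.0285. Without muscle ozone 13 or 23 or muscle air 3 or 4 Fdft1 no longer passed (log2 fold change -0.40 to -0.30, adjusted p 0.0541 to 0.0856). Lung (-0.18, adjusted p = 0.122), hypothalamus (0.08, adjusted p = 0.816) and adipose tissue (-0.25, adjusted p = 0.632) gave no call.

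Sqle, the squalene epoxidase next in line, rose in liver, where Fdft1 fell. Its values were 630.4 to 1029.8 (median 852) in ozone libraries, against 136 to 719 (median 406) in air libraries (1.14 ± 0.33, adjusted p = 0.0391), and 4 of 6 ozone libraries lay above all air libraries. Without liver ozone 13, 14, 16, 18, 19 or 20 or liver air 2 or 9 Sqle no longer passed (log2 fold change 1.07 to 1.22, adjusted p 0.0529 to 0.0807). Without liver air 1, its lowest library at 136, Sqle passed with a smaller fold change of 0.85 (adjusted p = 0.0315). Sqle did not pass in liver with equal library totals (1.09, adjusted p = 0.0522). By edgeR on the recovered reads Sqle did not pass in liver (adjusted p = 0.0676). In adipose tissue the fold change was 0.80 ± 0.24, adjusted p = 0.0659, and in lung, adrenal, hypothalamus and muscle it lay between -0.05 and 0.23. Liver stood apart from the mean of the other 5 tissues by 0.91 ± 0.23, adjusted p = 0.00553.

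Lss, which closes the ring to lanosterol, fell in adrenal and rose in muscle. Adrenal values were 769.6 to 992 (median 919) in ozone libraries, against 1618, 1561, 2498, 2078 and 1457 in air libraries, with no overlap and a narrow ozone group (-0.996 ± 0.15, adjusted p = 0.0006). Muscle values were 266, 333, 322, 396 and 421 in ozone libraries, against 146 to 252 (median 193) in air libraries, also with no overlap (0.82 ± 0.17, adjusted p = 0.00178). Both directions held in every setting and every fit that left out 1 library. The fold change of Lss lay between -0.20 and 0.10 in the other 4 tissues. The F test over tissues gave an adjusted p of 6.54e-09. Against the mean of the other 5 tissues the effect differed in adrenal (-1.11 ± 0.15, adjusted p = 9.1e-08) and in muscle (1.07 ± 0.15, adjusted p = 1.7e-07).

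Hsd17b7, a keto-reductase of sterol demethylation, showed the same pair of directions. In adrenal it had 299 to 428 (median 391) in ozone libraries, against 834, 569.9, 1044, 702 and 502 in air libraries, with no overlap (-0.89 ± 0.18, adjusted p = 0.00449). In muscle it averaged 115 ± 22.1 in ozone and 77.1 ± 25 in air libraries (SD, n = 5 and 6), a fold change of 0.60 ± 0.21, adjusted p = 0.0328. Without muscle ozone 13, 23 or 24 or muscle air 2, 4 or 9 Hsd17b7 no longer passed (log2 fold change 0.50 to 0.59, adjusted p 0.0523 to 0.0831). With equal library totals it was 0.28 in muscle (adjusted p = 0.33). In liver, where 5 of 6 ozone libraries lay above all air libraries, the fold change was 0.57 ± 0.20, adjusted p = 0.0856. The adrenal stood apart from the mean of the other 5 by -1.27 ± 0.21, adjusted p = 6.71e-06.

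Msmo1, the C4-methyl oxidase, fell in liver and muscle. Liver values were 715 to 1535 (median 1117) in ozone libraries, against 1564 to 2858 (median 1739.8) in air libraries, with every ozone library below every air library (-0.90 ± 0.20, adjusted p = 0.00952). Muscle values were 77.1, 93, 76.7, 66.2 and 58.8 in ozone libraries, against 87.8 to 165 (median 143) in air libraries, with 4 of 5 ozone libraries below all air libraries (-0.80 ± 0.20, adjusted p = 0.00549). In adrenal the fold change was -0.47 (adjusted p = 0.116), and in lung, hypothalamus and adipose tissue it lay between -0.15 and 0.20. Nsdhl, the dehydrogenase that acts on its product, passed in no tissue but reached -0.37 (adjusted p = 0.0588) in adrenal and -0.35 (adjusted p = 0.121) in liver.

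**Figure D4:**
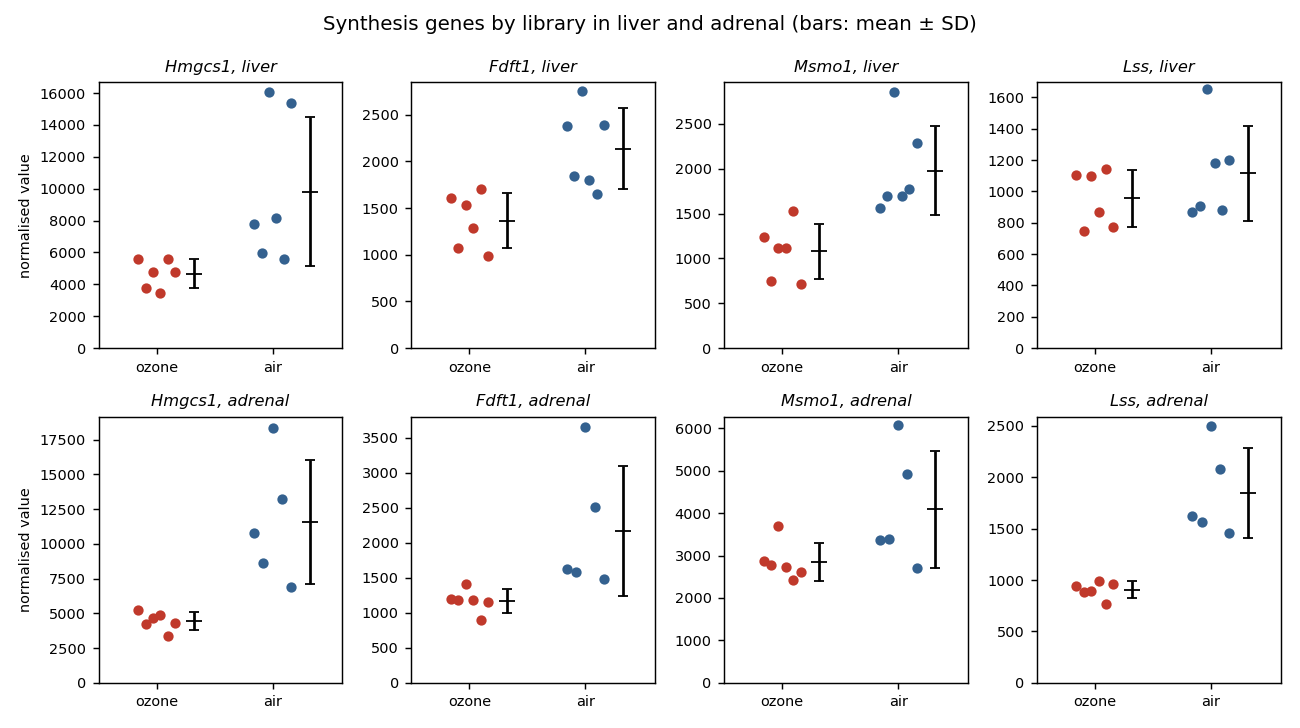
Normalised value by library (vertical axis) of Hmgcs1, Fdft1, Msmo1 and Lss in liver (top) and adrenal (bottom), ozone left in red and air right in blue, with bars for mean ± SD. In adrenal the ozone libraries of Hmgcs1, Fdft1 and Lss lie close together and below all air libraries, and in liver Msmo1 does not overlap while Lss does.

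Ebp, the sterol isomerase, fell in adrenal and muscle. Adrenal values were 142 to 181 (median 159.8) in ozone libraries, against 229, 236, 160.3, 216 and 264 in air libraries (-0.44 ± 0.14, adjusted p = 0.0494). Without adrenal ozone 14, 15, 17, 19 or 20 or adrenal air 2, 6, 9 or 11 Ebp no longer passed (log2 fold change -0.47 to -0.37, adjusted p 0.0615 to 0.117). Ebp did not pass in adrenal with no minimum mean (-0.44, adjusted p = 0.0669). In muscle it averaged 15.9 ± 5.14 in ozone and 27.9 ± 3.23 in air libraries (SD, n = 5 and 6) without overlap (-0.84 ± 0.25, adjusted p = 0.0164). Dhcr7, the reductase that yields cholesterol, fell in muscle, where it averaged 14.2 ± 8.54 in ozone and 27.5 ± 9.25 in air libraries (SD, n = 5 and 6), a fold change of -1.03 ± 0.34, adjusted p = 0.0262. Without muscle ozone 16, 23 or 24 or muscle air 7 Dhcr7 no longer passed (log2 fold change -0.95 to -0.86, adjusted p 0.0559 to 0.0715). Sc5d, the desaturase before it, rose in muscle with 483, 484, 676, 514 and 736 in ozone libraries, against 306 to 475 (median 387) in air libraries and no overlap (0.58 ± 0.16, adjusted p = 0.0111). With equal library totals Sc5d was 0.25 there (adjusted p = 0.236).

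In the tissues where they did not pass, Ebp ran from -0.21 to 0.13, Sc5d from -0.26 to 0.08 and Dhcr7 from -0.42 to 0.22. Cyp51, the lanosterol demethylase, and Tm7sf2, a sterol reductase, passed in no tissue. Their fold changes ran from -0.32 to 0.22 and from -0.26 to 0.37. In muscle the sterol arm held 3 genes that rose, 4 that fell and 4 that did not pass, where 21.6% of all genes rose and 22.1% fell. In adrenal it held 4 that fell and 7 that did not pass, where 9.23% rose and 9.38% fell.

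Among the 6 uptake, transport and storage genes, Soat1 and Npc2 rose in lung. Soat1, the enzyme that esterifies cholesterol for droplets, had 4078 to 5508 (median 4957) in ozone libraries, against 2218 to 2984 (median 2506) in air libraries (0.90 ± 0.10, adjusted p = 2.63e-05). Npc2, which hands sterol on inside the lysosome, had 13561 to 24102 (median 16988) in ozone libraries, against 6984 to 13108 (median 9653) in air libraries (0.88 ± 0.16, adjusted p = 0.00182). Neither overlapped. Lung macrophage markers moved in both directions, as given above. There 2 of 5 lung markers, Sftpb and Sftpa1, rose, and 4 of 6 tested neutrophil and 4 of 8 lymphocyte markers fell. The part of any of these cells in the lung rises of Soat1 and Npc2 was not tested. Soat1 also fell in muscle, where it averaged 79.3 ± 20.2 in ozone and 136 ± 40.6 in air libraries (SD, n = 5 and 6), a fold change of -0.76 ± 0.22, adjusted p = 0.0143. Lung stood apart from the mean of the other 5 tissues for Soat1 by 1.05 ± 0.23, adjusted p = 0.00232 (3.27% of all genes passed), and muscle by -0.94 ± 0.24, adjusted p = 0.00186.

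Npc1, the lysosomal membrane protein that takes sterol from NPC2, fell in liver with 607 to 1085 (median 867) in ozone libraries, against 1422 to 2394 (median 1656) in air libraries (-1.07 ± 0.16, adjusted p = 0.000485). The groups did not overlap, and liver stood apart from the mean of the other 5 by -1.04 ± 0.16, adjusted p = 1.8e-06. Muscle also stood apart for Npc1, by 0.56 ± 0.17, adjusted p = 0.00822 (28.3% of all genes passed). Npc1 fold changes in the other tissues ran from -0.41 in adrenal (adjusted p = 0.0955) to 0.26 in muscle. Npc2 outside lung ran from -0.16 to 0.39, and Soat1 outside lung and muscle from -0.22 to 0.37.

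Mylip, the LXR-induced ubiquitin ligase that removes lipoprotein receptors, fell in muscle with 249, 425, 317, 264 and 368 in ozone libraries, against 406 to 1207 (median 606) in air libraries (-0.99 ± 0.25, adjusted p = 0.00613). There 4 of 5 ozone libraries lay below all air libraries. Its fold change was 0.44 (adjusted p = 0.0884) in lung and between -0.55 and -0.38 in the other 4 tissues. Stard4, a cytosolic sterol carrier, and Lipa, the lysosomal lipase that frees cholesterol, passed in no tissue. Lipa did not overlap in adipose tissue, with 869, 1054, 1021, 1133 and 1046 in ozone libraries, against 1347, 1183, 1483, 1411 and 1179 in air libraries, but its adjusted p was 0.0871 (fold change -0.36 ± 0.12).

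The exporters Abca1 and Abcg1, which pass cholesterol to lipoprotein particles and are classic LXR targets, fell in muscle. Abca1 had 206, 301, 146, 171 and 169 in ozone libraries, against 426 to 1065 (median 529) in air libraries (-1.59 ± 0.24, adjusted p = 0.000249). Abcg1 had 42.4, 39.4, 13, 23.2 and 21.4 in ozone libraries, against 43 to 145 (median 89) in air libraries (-1.74 ± 0.35, adjusted p = 0.00155). Every ozone library lay below every air library for both genes, and both calls held in every setting and every fit that left out 1 library. Macrophages are rich in both exporters, and in air Abcg1 was highest in adipose tissue (274.3 ± 62.4 CPM). In muscle 2 of 9 tested macrophage markers fell, where 22.1% of all genes fell, with all 9 fold changes below 0 and the sums given above. All 5 adipose markers also lay below 0 there (median -0.76) without passing. They summed to 80.3 to 136.1 in ozone and 82.3 to 271.3 CPM in air libraries. Of 4 tested astrocyte markers 2 fell, and markers of myelinating cells fell as given above. The part of any of these cells in the fall of the exporters was not tested.

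Abca1 in adipose tissue had 740.0, 555, 1119, 581 and 773 in ozone libraries, against 1157, 980.1, 1279.9, 1168 and 1069 in air libraries, with 4 of 5 ozone libraries below all air libraries and a fold change of -0.63 ± 0.18, adjusted p = 0.0541. In liver it was -0.45 (adjusted p = 0.234), in hypothalamus -0.33 (adjusted p = 0.412), in adrenal 0.08 (adjusted p = 0.91) and in lung 0.28 (adjusted p = 0.273). Abcg1 ran from -0.51 in liver to 0.15 in lung outside muscle. Against the mean of the other 5 tissues, muscle differed by -1.38 ± 0.28, adjusted p = 0.000126 for Abca1 and by -1.63 ± 0.24, adjusted p = 4.85e-07 for Abcg1.

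Nr1h3, the gene of the sterol receptor LXR alpha, fell in lung, liver and adrenal. Lung values were 299 to 363 (median 325) in ozone libraries, against 368 to 652 (median 443) in air libraries, with no overlap (-0.45 ± 0.12, adjusted p = 0.0205). In liver they were 831 to 1016 (median 911) in ozone libraries, against 978 to 1634 (median 1308) in air libraries, with 5 of 6 ozone libraries below all air libraries (-0.51 ± 0.13, adjusted p = 0.0191). Adrenal values were 79.6 to 148 (median 102) in ozone libraries, against 246, 230.4, 141, 235 and 258 in air libraries (-1.005 ± 0.21, adjusted p = 0.00542). The lowest of those air values, 141, came from air 8, and without it and ozone 16 the fold change was -1.10. In adrenal, air 8 was also the highest air library for Hmgcs1, Fdft1, Lss and Hsd17b7. Without both libraries the adrenal falls of these genes were smaller, at -1.15, -0.65, -0.87 and -0.78. Those of Ebp (-0.58) and Srebf1 (-0.72) were larger, and all of these still passed. The 3 calls for Nr1h3 held in every fit that left out 1 library. Nr1h3 gave -0.38 (adjusted p = 0.203) in adipose tissue, 0.04 (adjusted p = 0.955) in hypothalamus and 0.20 (adjusted p = 0.342) in muscle, and the adrenal effect stood apart from the mean of the other 5 by -0.79 ± 0.21, adjusted p = 0.00525. The muscle effect did so too, by 0.66 ± 0.21, adjusted p = 0.0133 (28.3% of all genes passed).

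**Figure D5:**
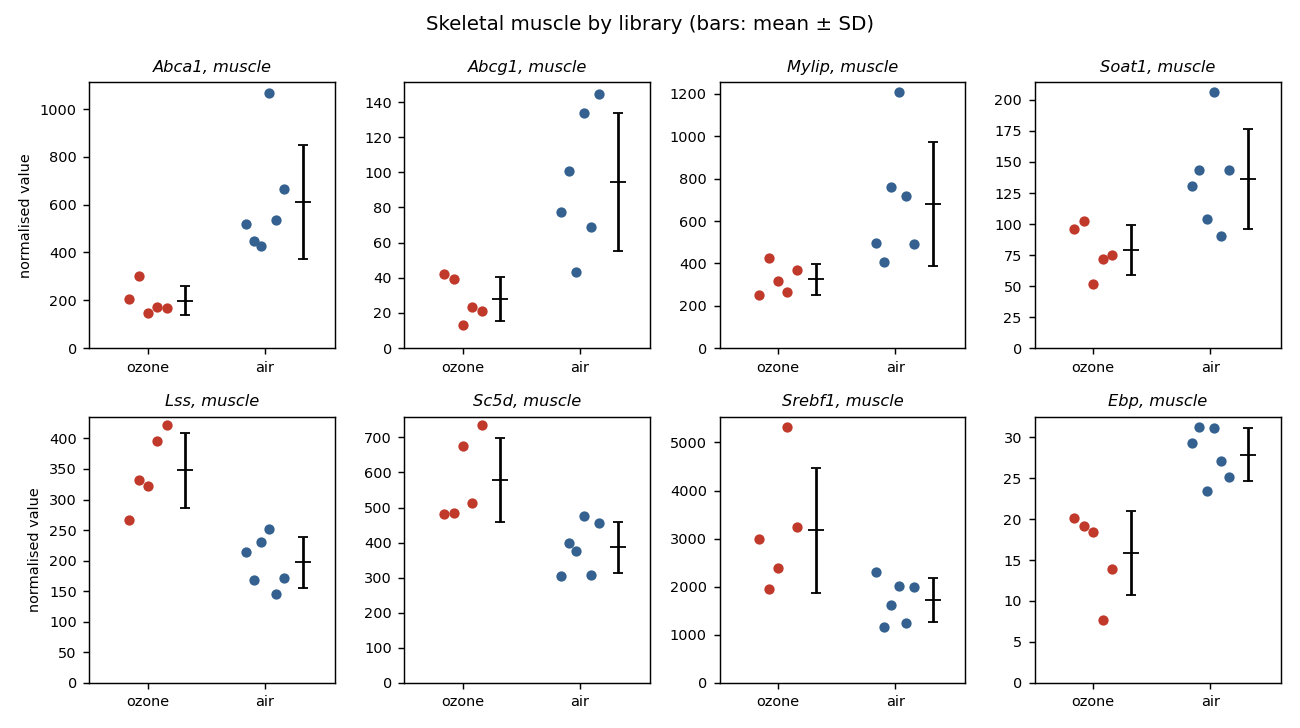
Normalised value by library (vertical axis) of 8 genes in skeletal muscle, ozone left in red and air right in blue, with bars for mean ± SD. Abca1, Abcg1 and Ebp lie lower in ozone and Lss and Sc5d higher, each with no overlap, while Mylip, Soat1 and Srebf1 overlap in at least 1 library.

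The ozone effect differed between tissues for 21 of the 32 genes by the F test, where 34.1% of all genes did. The lowest adjusted p were those of Lss (6.54e-09), Insig1 (4.58e-08), Npc1 (1.9e-06), Srebf1 (2.1e-06), Abcg1 (9.02e-06) and Hmgcs1 (9.26e-06). Set against the mean of the other 5 tissues, muscle stood apart for 18 genes (10 higher and 8 lower, where 28.3% of all genes passed). Liver did so for 6 (2 higher and 4 lower, 6.58% of all genes) and adrenal for 6 (all lower, 14.5%). Lung (3.27% of all genes), hypothalamus (1.41%) and adipose tissue (3.47%) did so for 1 each. Muscle also had the most changed genes of the 6 tissues over the whole table, and without its libraries the F test passed 13 of the 32 genes. The share of all genes that passed without muscle was not counted, so these 13 cannot be set against the 34.1%.

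Partners of the pathway outside the 32 genes were read from 8 further lists. A tissue with no gene past the threshold is not listed, and the percentages of all genes that rose or fell are those given above. In hypothalamus limma called 0 of 84 tested genes of these lists, with 6 at an unadjusted p under 0.05, while edgeR called 0 and DESeq2 0. Of 13 genes for SREBP processing and sterol-regulated degradation, 1 rose in lung (12 tested), 3 rose and 1 fell in liver (12 tested), 1 rose and 1 fell in adrenal (12 tested), 1 rose and 1 fell in adipose tissue (12 tested) and 4 rose and 3 fell in muscle (12 tested). Erlin1, a sterol-binding membrane protein of the degradation machinery, fell in liver (-0.70 ± 0.14, adjusted p = 0.00429), adrenal (-0.54 ± 0.12, adjusted p = 0.00754) and muscle (-0.67 ± 0.11, adjusted p = 0.000548). Nploc4, an adaptor of the extraction ATPase Vcp, rose in lung (0.53 ± 0.08, adjusted p = 0.000414), liver (0.44 ± 0.11, adjusted p = 0.0206) and adrenal (0.58 ± 0.10, adjusted p = 0.00149). Sec24d, a coat protein of vesicles that leave the endoplasmic reticulum, rose in liver (0.68 ± 0.12, adjusted p = 0.00166) and adipose tissue (0.66 ± 0.14, adjusted p = 0.0141) and fell in muscle (-1.05 ± 0.20, adjusted p = 0.00112). In muscle Rnf139 rose (1.16 ± 0.12, adjusted p = 2.27e-05) and so did Vcp (0.61 ± 0.12, adjusted p = 0.00114), Erlin2 rose in liver (0.56 ± 0.13, adjusted p = 0.0122) and Rnf145 fell in adipose tissue (-0.50 ± 0.12, adjusted p = 0.0312).

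Of 14 fatty acid synthesis genes known as SREBP-1 targets, 1 rose in lung (14 tested), 1 fell in liver (14 tested), 1 rose and 4 fell in adrenal (14 tested), 1 fell in adipose tissue (14 tested) and 1 rose and 5 fell in muscle (13 tested). Fasn, the fatty acid synthase, rose in lung with 11562 ± 1902 in ozone and 6374 ± 750.0 in air libraries (mean ± SD), a fold change of 0.85 ± 0.12, adjusted p = 0.00022. Mid1ip1, an activator of acetyl-CoA carboxylase, fell in liver (-1.63 ± 0.26, adjusted p = 0.000753) and adrenal (-1.001 ± 0.14, adjusted p = 0.00041). Gpam, the first step of glycerolipid synthesis, fell in adrenal (-0.97 ± 0.21, adjusted p = 0.00633), adipose tissue (-1.29 ± 0.28, adjusted p = 0.0164) and muscle (-1.34 ± 0.22, adjusted p = 0.000526). The desaturase gene Fads1 fell in adrenal (-1.11 ± 0.19, adjusted p = 0.00152) and muscle (-0.995 ± 0.28, adjusted p = 0.0112), and Fads2 fell in muscle (-1.21 ± 0.19, adjusted p = 0.00038). Elovl5, a fatty acid elongase, rose in adrenal (1.04 ± 0.27, adjusted p = 0.0166) and fell in muscle (-1.05 ± 0.23, adjusted p = 0.003).

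Of 10 genes for isoprenoid side branches, 2 rose in liver (10 tested), 1 rose in adrenal (10 tested), 1 rose in adipose tissue (10 tested) and 3 rose and 1 fell in muscle (10 tested). Dhdds, a subunit of the enzyme that builds dolichol from farnesyl pyrophosphate, rose in liver with 1243 ± 193 in ozone and 451 ± 71.9 in air libraries (mean ± SD), a fold change of 1.46 ± 0.13, adjusted p = 7.14e-06, and its partner Nus1 rose in adipose tissue (1.19 ± 0.18, adjusted p = 0.00199). Pdss1, for the ubiquinone side chain, rose in liver (0.74 ± 0.18, adjusted p = 0.0154), and the ubiquinone gene Coq2 rose in muscle (0.88 ± 0.13, adjusted p = 0.000204). The prenyltransferase subunit Fnta rose in adrenal (0.55 ± 0.15, adjusted p = 0.0245), while Fntb (0.84 ± 0.19, adjusted p = 0.00356) and Rabggta (0.52 ± 0.14, adjusted p = 0.00863) rose and Ggps1 (-0.49 ± 0.16, adjusted p = 0.0224) fell in muscle.

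Of 9 LXR partners and other LXR targets in the tables, 1 rose in lung (7 tested) and 3 rose and 2 fell in muscle (7 tested). Lpl, the lipoprotein lipase, rose in lung (0.49 ± 0.15, adjusted p = 0.0318) and fell in muscle with 5585 ± 1654 in ozone and 16792 ± 6182 in air libraries (mean ± SD), a fold change of -1.56 ± 0.26, adjusted p = 0.000493. Rxra and Rxrb, receptors that pair with LXR, rose in muscle (0.93 ± 0.17, adjusted p = 0.000876 and 0.52 ± 0.15, adjusted p = 0.0141), and so did Abca7 (0.75 ± 0.17, adjusted p = 0.00338). Of 15 genes for oxysterols and bile acids, 1 rose and 1 fell in lung (12 tested), 1 rose and 1 fell in liver (13 tested), 1 fell in adrenal (15 tested) and 1 rose and 3 fell in muscle (7 tested). Cyp7a1, the rate-limiting enzyme of bile acid synthesis, rose in liver with 3375 ± 2039.9 in ozone and 1262 ± 849 in air libraries (mean ± SD), a fold change of 1.54 ± 0.47, adjusted p = 0.0493, and Amacr, a racemase of side-chain shortening, fell there (-1.51 ± 0.21, adjusted p = 0.000308). Cyp27a1, which makes 27-hydroxycholesterol, rose in muscle with 1422 ± 169 in ozone and 465 ± 64.5 in air libraries (mean ± SD), a fold change of 1.62 ± 0.13, adjusted p = 2.58e-06.

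In the same bile acid list, Hsd3b7 (-1.63 ± 0.18, adjusted p = 2.82e-05), Cyp39a1 (-1.04 ± 0.28, adjusted p = 0.00875) and the receptor Nr0b2 (-0.90 ± 0.34, adjusted p = 0.0441) fell in muscle, and Nr0b2 also fell in adrenal (-1.24 ± 0.25, adjusted p = 0.00479). The growth factor receptor Fgfr4 fell (-0.73 ± 0.11, adjusted p = 0.000372) and Cyp46a1, a cholesterol hydroxylase, rose (0.90 ± 0.22, adjusted p = 0.0115) in lung. Of 14 other sterol carriers and lysosomal genes, 2 rose and 1 fell in lung (14 tested), 1 fell in liver (14 tested), 1 rose and 3 fell in adrenal (14 tested), 1 rose in adipose tissue (14 tested) and 1 rose and 3 fell in muscle (14 tested). Gramd1b, which carries plasma membrane sterol to the endoplasmic reticulum, rose in adrenal with 12358 ± 1394 in ozone and 5363 ± 1956 in air libraries (mean ± SD), a fold change of 1.26 ± 0.19, adjusted p = 0.000744, and also in muscle (0.81 ± 0.21, adjusted p = 0.00637). Gramd1c fell in lung (-0.64 ± 0.14, adjusted p = 0.00697) and liver (-0.81 ± 0.18, adjusted p = 0.0096), Stard5 rose in lung (0.59 ± 0.13, adjusted p = 0.00523) and fell in adrenal (-0.55 ± 0.14, adjusted p = 0.0128), and the lysosomal membrane gene Lamp2 fell in muscle (-0.86 ± 0.14, adjusted p = 0.000536).

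Of 7 other lipoprotein receptors in the tables, 1 fell in lung (7 tested), 2 rose in adrenal (7 tested) and 1 rose and 3 fell in muscle (6 tested). Scarb1, the receptor through which adrenal cells take cholesteryl ester from high-density lipoprotein, rose in adrenal with 96807 ± 25302 in ozone and 36843 ± 18219 in air libraries (mean ± SD), a fold change of 1.49 ± 0.31, adjusted p = 0.00522, and Lrp8 rose there too (0.65 ± 0.20, adjusted p = 0.0414). The scavenger receptor Msr1, known from macrophages, fell in muscle (-1.93 ± 0.30, adjusted p = 0.000353), as did Cd36 (-0.68 ± 0.21, adjusted p = 0.0193), while Sort1 rose (0.80 ± 0.16, adjusted p = 0.00137). Vldlr fell in lung (-0.35 ± 0.11, adjusted p = 0.035) and muscle (-0.50 ± 0.14, adjusted p = 0.0108). Of 9 genes by which the adrenal uses cholesterol, 1 rose in lung (8 tested), 1 rose in adrenal (9 tested), 1 fell in adipose tissue (7 tested) and 2 rose in muscle (4 tested). Fdx1, the electron carrier of side-chain cleavage, rose in adrenal (0.76 ± 0.21, adjusted p = 0.0236), lung (0.55 ± 0.15, adjusted p = 0.0211) and muscle (0.58 ± 0.16, adjusted p = 0.0107). Star, the mitochondrial cholesterol importer, fell in adipose tissue (-0.70 ± 0.19, adjusted p = 0.0458), and Nr5a1, a factor of steroidogenic cells, rose in muscle with 205 ± 69.4 in ozone and 36.3 ± 26.8 in air libraries (mean ± SD), a fold change of 2.66 ± 0.41, adjusted p = 0.00034.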

How the data were processed

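Per the labels' protocols, frozen tissue gave RNA by Qiagen kits (liver, lung, muscle, adipose tissue) or a Zymo kit (hypothalamus, adrenal), and selected messenger RNA was sequenced on a NextSeq instrument. Partek, DESeq2 and rn6 are named in the submitters' processing notes, without versions or roles. Aligner, counter and strand setting were not given in the sources used here, and overlapping genes and paralogs are uncertain. The authors deposited 1 table per tissue of a signal, read counts divided by 1 size factor per library, each tissue normalised apart. In every library 100% of values above 0 were whole multiples of 1 step within 0.01, which gave back the reads; on these edgeR called 203 (hypothalamus) to 5651 (muscle) genes. Of the labelled samples, 2 were not analysed here (air 7 of the adrenal, ozone 17 of muscle), and 24 entries with a date as symbol were left out.

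Genes with a mean of at least 10 were tested in each tissue on log2(value + 1) with limma 3.58.1 (R 4.3.3; trend, robust), and p-values were Benjamini-Hochberg adjusted over all genes of the tissue. Tissues were compared in 1 limma fit of 17361 genes. Alternatives were edgeR 4.0.16 and DESeq2 1.42.0 on recovered reads, other scalings, pseudocounts of 0.5 and 5, a minimum of 50 or none, array weights and leaving out libraries. Leaving out the libraries that stand apart was chosen after seeing the data. Scripts were tested on simulated data. Within groups no library copied another: over 160 pairs of the same group, chi-square divided by its degrees of freedom was at least 8.76. Libraries of different groups were not compared. The genes, lists and motifs were chosen with earlier results of these data known. All 32 genes are accounted for. Genes past the threshold are named with values, the 8 lowest adjusted p of a tissue by library, others by range, and up to 4 genes per further list and tissue. A gene of the receptor list is not reported here, and the list's counts are without it.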

Additional observations from a re-analysis of the deposited data

Results flagged for a closer look

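In 9 of 96 groups of libraries examined, 84 of gene values and 12 of library correlations, 1 library stood far from the rest of its group; chance gives about 1 in 20. Nr1h3 was 652.4 in lung air 10 and 367.7 to 455.6 in the other lung air libraries, and 141.1 in adrenal air 8 against 230.4 to 258 in the others. Hsd17b7 was 298.8 in adrenal ozone 15 against 382.2 to 428.5, and 124.4 in muscle air 7 against 50.9 to 75.7. Dhcr7 was 45.25 in that same muscle library against 20.2 to 28.7 in the others. Srebf1 was 1138 in adipose ozone 21 against 4307 to 5319 in the other ozone libraries. Mean correlation with the own group was 0.944 for adrenal ozone 16, 0.917 for liver air 1 and 0.892 for adrenal air 8.

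For 21 members the ozone effect differed between tissues by the F test on the interaction of tissue with exposure. In the mevalonate arm the adjusted p was 0.0267 for Acat2, 9.26e-06 for Hmgcs1 and 0.00376 for Mvd. In the squalene and sterol arm the adjusted p was 0.0351 for Fdft1, 0.00281 for Sqle, 6.54e-09 for Lss, 0.0015 for Msmo1, 0.00269 for Nsdhl, 6.49e-05 for Hsd17b7, 0.00468 for Ebp, 0.00888 for Sc5d and 0.0155 for Dhcr7. Among the sensors and factors the adjusted p was 2.1e-06 for Srebf1, 0.000259 for Scap and 4.58e-08 for Insig1. In uptake, transport and storage the adjusted p was 1.9e-06 for Npc1, 0.000279 for Soat1 and 0.0329 for Lipa. In export and LXR the adjusted p was 0.000456 for Abca1, 9.02e-06 for Abcg1 and 0.00309 for Nr1h3. Nsdhl and Lipa passed this test but in no single tissue.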

How the results depend on the processing

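Of the 42 gene and tissue pairs that passed, none changed direction in the alternatives run, 22 passed in every one, 31 in every setting with all libraries or with those that stand apart left out, and 25 in every fit that left out 1 library. Each pair was counted only over the alternatives in which its gene was tested. By setting, 10 were lost with equal library totals, 2 with no minimum, 1 with edgeR, and 0 with DESeq2, TMM scaling, array weights, a minimum mean of 50 or either other pseudocount. A minimum mean of 50 left Mvk, Mvd, Ebp and Dhcr7 in muscle untested, so these could not be lost there. Equal library totals moved the median fold change of all genes to -0.31 in muscle, -0.14 in adrenal and -0.13 in adipose tissue. With it, 4 members fell in lung, 1 rose in liver, 0 rose and 11 fell in adrenal, 1 rose in hypothalamus, 3 fell in adipose tissue, and 2 rose and 14 fell in muscle. With array weights 4 fell in lung, 10 fell in liver, and 4 rose and 2 fell in adipose tissue. In adipose tissue DESeq2 gave 2 risen and 3 fallen (5.87% and 5.47% of all genes). A minimum mean of 50 or TMM scaling gave 2 fallen there (3.6% of all genes with TMM scaling). With edgeR 1 rose in liver (6.39% of all genes). Leaving out 1 library, the risen and fallen counts ran from 4 to 6 and 1 to 3 in lung, 1 to 3 and 3 to 8 in liver, 0 to 2 and 5 to 7 in adrenal, 1 to 2 and 0 to 0 in hypothalamus, 0 to 3 and 0 to 2 in adipose tissue, and 4 to 7 and 6 to 9 in muscle. Over all genes DESeq2 called 551 in hypothalamus, against 215 by limma, and 1616 in adipose tissue, against 1043. Shares of all genes were not counted with array weights, a minimum mean of 50 or 1 library left out. Member counts in those settings therefore cannot be set against such a share. Why these counts moved was not tested.

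Air and ozone libraries share no number, so no paired analysis of ozone against air was possible. The library number was also used as a replicate block across tissues (consensus correlation 0.00144, from equal numbers that the labels do not tie to 1 rat). With it the F test passed 21 members and the 6 tissue contrasts passed 33 gene and tissue pairs, as without the block. Without the muscle libraries, and so with no contrast for muscle, the F test passed 13 members and the contrasts 15 gene and tissue pairs. The share of all genes was not counted with the block or without muscle.

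Regulators that did not pass changed sign in these cases. With equal library totals the fold change was -0.0131 for Srebf2, -0.0469 for Scap and -0.000722 for Insig2 in lung, -0.0167 for Insig2 in adipose tissue, and -0.0786 for Scap, -0.275 for Insig1 and -0.124 for Nr1h3 in muscle. With array weights Srebf2 was 0.0151 in adipose tissue. Leaving out 1 library, it ran from -0.0254 to 0.064 for Scap and -0.00115 to 0.1605 for Insig2 in lung, -0.113 to 0.2035 for Nr1h3 in hypothalamus, -0.143 to 0.0254 for Srebf2 in adipose tissue and -0.0257 to 0.1446 for Insig1 in muscle. What depth limits at low values was not tested.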
